A study of Arabidopsis thaliana with 48 samples.

Results

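The comparison of roots after 8 h on the auxin indole-3-acetic acid (IAA) with roots after 8 h on control medium rested on 6 arrays, 3 per medium, of 48 in the time course. The arrays were chosen by their labels alone. All 6 came from roots of 6-day-old Arabidopsis thaliana seedlings that had grown in continuous light on a nylon screen laid on MS medium with sucrose. The seedlings were moved with the screen to medium with 1 µM IAA or to control medium, and the roots were harvested 8 h later. The labels name no ecotype, mutant or transgene, and they do not say whether the 3 replicates of a group were separate cultures, so p-values measure the spread between these samples, which may be technical. Each array gave a log2 intensity for 22810 probe sets, of which 64 control probe sets were left out and 22746 were tested.

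Auxin acts by joining receptor F-box proteins to Aux/IAA repressors, which are then degraded, so that auxin response factors can activate their target genes. Among the known early targets are the Aux/IAA genes themselves and the GH3 genes, whose enzymes attach IAA to amino acids and so lower the pool of free auxin. In roots, auxin slows the elongation of cells and starts lateral roots from pericycle cells through LBD transcription factors. Genes are named below where the probe gene table lists exactly 1 gene for a probe set, which held for 13513 probe sets that stand for 13356 genes. The table lists several genes for 503 probe sets and does not list 8730, of which 17.0% were called at 8 h against 13.5% of those with 1 gene and 14.3% of those with several, and many well known auxin genes lie outside the named set. Most of the named genes are given by their locus, since 1557 of them carry a symbol in the RefSeq table.

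The labels were checked on GH3.3 (AT2G23170), a GH3 enzyme gene, and LBD29 (AT3G58190), a transcription factor gene of lateral root initiation. GH3.3 stood at 13.18, 13.63 and 13.73 on IAA, against 7.69, 7.70 and 6.91 on control medium (log2 intensity). LBD29 stood at 11.27, 11.81 and 11.87 on IAA, against 6.78, 6.67 and 6.86 on control medium. In both genes every IAA array lay above every control array, by at least 5.49 for GH3.3 and 4.41 for LBD29 on the log2 scale. GH3.3 was 67.8-fold higher (log2 change 6.08 ± 0.555, adjusted p = 1.39e-10), and LBD29 was 29.4-fold higher (log2 change 4.88 ± 0.25, adjusted p = 4.33e-17). At 0 h, after fewer than 5 minutes on the medium, GH3.3 averaged 7.68 ± 0.244 on IAA and 8.25 ± 0.391 on control medium and LBD29 averaged 6.89 ± 0.181 on IAA and 7.12 ± 0.534 on control medium (mean log2 intensity ± SD over 3 arrays). Standard errors of changes here and below are those of the limma fit with n = 3 arrays per group, and p-values are limma's, from 2-sided tests, with Benjamini-Hochberg adjustment across the 22746 probe sets and a call at an adjusted p under 0.05.

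Of the 22746 probe sets, 3385 (14.9%) were called at 8 h. IAA roots were higher for 1923 (8.45%) and lower for 1462 (6.43%), and 893 (3.93%) also had a fold of at least 2, 453 higher and 440 lower. The calls that rose reached farther: 40 were at least 8-fold higher and 16 at least 8-fold lower, while 4 were at least 32-fold higher and 0 at least 32-fold lower. The median called change was 1.498-fold among the higher and 1.65-fold among the lower probe sets. By mean intensity, 4.64% of the lowest quartile of probe sets were called, against 21.6% of the highest. Among named genes, 12.4% to 14.8% of those on each of the 5 nuclear chromosomes were called. In 3329 of the 3385 called probe sets the 3 IAA arrays and the 3 control arrays did not overlap, which over all probe sets held for 8028 (35.3%). The calls dropped to 1444 without replicate 1 and 1723 without replicate 2, in each case leaving out that replicate number at all times, and to 1414 (6.22%) when the difference already measured at 0 h was subtracted. With the replicate number as a block the count was 4508, and with a block within each time it was 3851.

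**Figure D1:**
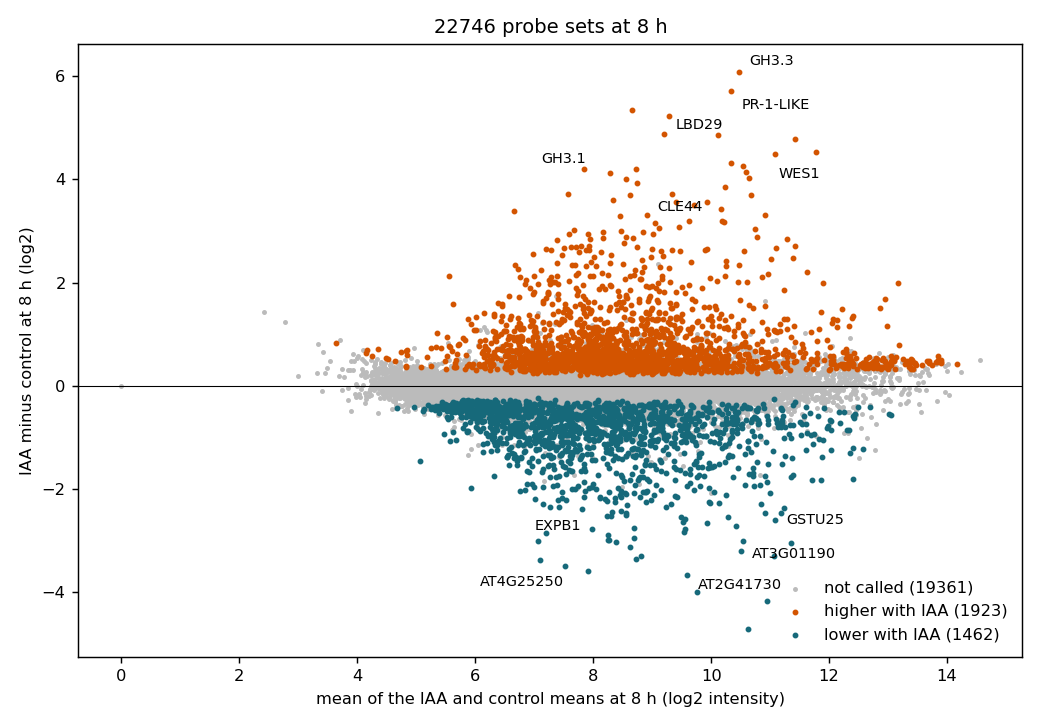
All 22746 probe sets at 8 h. The x axis gives the mean of the IAA and control means (log2 intensity), the y axis IAA minus control (log2), orange points the 1923 probe sets called higher on IAA, blue-green points the 1462 called lower and grey points those not called. The largest rises reach higher (GH3.3 at 6.08) than the largest falls reach low.

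Neither the medium at the start nor the stay on control medium gave a call. At 0 h, IAA minus control gave 0 called probe sets with limma, with 181 at an unadjusted p under 0.05. IAA roots at 8 h minus IAA roots at 0 h gave 3537 (15.5%), while control roots at 8 h minus control roots at 0 h gave 0, with 538 at an unadjusted p under 0.05. A count of 0 does not show that nothing differed.

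The largest rises and falls were taken among called genes whose IAA and control arrays do not overlap. Each of the 15 named genes with the largest rises was between 12.9-fold and 67.8-fold higher, and the nearest IAA and control arrays lay 3.12 to 5.49 apart on the log2 scale. Besides GH3.3 and LBD29 they included 2 more GH3 genes. WES1 (AT4G27260), which is GH3.5, stood at 13.003, 13.43 and 13.54 on IAA, against 8.78, 8.70 and 9.01 on control medium, 22.5-fold higher (log2 change 4.49 ± 0.235, adjusted p = 6.02e-17). GH3.1 (AT2G14960) stood at 10.13, 10.46 and 10.45 on IAA, against 6.22, 6.18 and 6.29 on control medium, 17.3-fold higher (log2 change 4.12 ± 0.32, adjusted p = 2.78e-12). The GH3.1 control mean lay within the range of the arrays' lower quartiles (6.11 to 6.29), the level below which a value is not shown to lie above background, since detection calls were not used here. The control means of AT5G14650 and AT5G22430 lay below that range, so the folds of these 2 genes, 18.5 and 13.2, rest on control values not shown to exceed background.

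The second largest rise among named genes was that of PR-1-LIKE (AT2G19990), a member of the pathogenesis-related protein family. It stood at 12.97, 13.28 and 13.33 on IAA, against 7.06, 7.73 and 7.63 on control medium, 52.7-fold higher (log2 change 5.72 ± 0.392, adjusted p = 1.4e-13). The 2 measured loci next to it on chromosome 2 in the RefSeq table also rose. AT2G19970 stood at 13.83, 14.09 and 14.20 on IAA, against 9.14, 9.94 and 9.45 on control medium, 23.1-fold higher (log2 change 4.53 ± 0.466, adjusted p = 2.33e-09). AT2G19980, which lies between them, rose by 1.75 on the log2 scale (adjusted p = 5.38e-11). The lowest IAA array of PR-1-LIKE and AT2G19970 lay 5.24 and 3.89 above the highest control array. Whether probes of these neighbours share sequence was not tested here.

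The pectate lyase gene AT1G67750, whose product cleaves pectin in the wall, stood at 12.56, 12.68 and 12.75 on IAA, against 8.58, 8.56 and 8.79 on control medium, 16.2-fold higher (log2 change 4.02 ± 0.212, adjusted p = 7.67e-17). The other leading rises carry only a locus in the tables. AT1G30760 stood at 12.40, 12.64 and 12.46 on IAA, against 8.15, 8.06 and 8.35 on control medium, 19.9-fold higher (log2 change 4.32 ± 0.199, adjusted p = 2.25e-18), and AT5G47550 at 12.52, 12.75 and 12.71 on IAA, against 8.32, 8.66 and 8.59 on control medium, 17.6-fold higher (log2 change 4.14 ± 0.238, adjusted p = 1.08e-15). The spread within each medium was at most 0.178 (SD, log2) in AT1G67750, AT1G30760 and AT5G47550. AT2G23060, AT2G28690, AT1G29270 and AT1G62770 were 12.9-fold to 16.1-fold higher. For all 15 genes the change from 0 to 8 h was 3.54 to 5.83 in IAA roots and -0.81 to 0.44 in control roots (log2), and the calls held when any single 8 h array or any replicate number was left out.

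The 15 largest falls among named genes ran from 6.19-fold to 12.7-fold, and all 15 carry only a locus. The class III peroxidase gene AT3G01190, of the family that oxidises wall phenolics with hydrogen peroxide, was among them. It stood at 8.84, 8.97 and 8.93 on IAA, against 12.04, 12.14 and 12.16 on control medium, 9.16-fold lower (log2 change -3.20 ± 0.257, adjusted p = 5.77e-12). AT5G66815, the CEP5 gene of a small secreted peptide, stood at 5.62, 5.68 and 5.38 on IAA, against 8.54, 8.97 and 8.21 on control medium, 8.07-fold lower (log2 change -3.01 ± 0.245, adjusted p = 8.51e-12). The arrays of the media lay 3.06 and 2.53 apart (log2) in these genes. AT3G53980 stood at 9.50, 9.52 and 9.23 on IAA, against 12.58, 12.76 and 12.82 on control medium, 9.88-fold lower (log2 change -3.30 ± 0.392, adjusted p = 5.63e-08), and AT1G18980 was 6.53-fold lower (log2 change -2.71 ± 0.252, adjusted p = 2.39e-10). The IAA means of AT4G25250, AT3G59370, AT5G66815 and AT1G19900 (5.56 to 6.12) lay within or below the range of the arrays' lower quartiles, so these 4 folds, 7.23 to 12.1, are not shown to be free of background.

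Replicates of several falling genes spread widely. The dirigent genes AT4G11190 and AT4G11210, of the family that guides the coupling of lignan and lignin precursors, are neighbours on chromosome 4 among the measured genes. AT4G11210 stood at 6.92, 6.08 and 8.48 on IAA, against 10.53, 10.004 and 10.81 on control medium, 9.77-fold lower (log2 change -3.29 ± 0.649, adjusted p = 0.00033). AT4G11190 stood at 7.79, 7.05 and 9.55 on IAA, against 10.86, 9.91 and 12.12 on control medium, 7.13-fold lower (log2 change -2.83 ± 0.656, adjusted p = 0.00202). In both, IAA replicate 3 was the highest of the IAA arrays and replicate 2 the lowest, and in AT4G11190 the highest IAA array came within 0.36 of the lowest control array. The AT4G11190 call was lost without replicate 1 (adjusted p = 0.079).

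AT2G41730 had the largest fall, but its probe set is of a kind that may bind several transcripts. It stood at 7.87, 7.79 and 7.62 on IAA, against 12.12, 11.68 and 10.47 on control medium, 12.7-fold lower (log2 change -3.66 ± 0.832, adjusted p = 0.00168). AT2G21640 stood at 7.21, 7.03 and 6.95 on IAA, against 10.99, 10.41 and 9.18 on control medium, 8.76-fold lower (log2 change -3.13 ± 0.688, adjusted p = 0.00118). In both genes control replicate 3 was the lowest control array, and both calls were lost without replicate 1 (adjusted p = 0.0897 and 0.0717). AT5G04120 stood at 6.96, 6.28 and 7.92 on IAA, against 10.43, 9.48 and 11.31 on control medium, 10.2-fold lower (log2 change -3.35 ± 0.877, adjusted p = 0.00663). Its call was lost without control 8 h replicate 3 (adjusted p = 0.0504), without replicate 1 (0.0935) and without replicate 2 (0.0687). AT1G19960, AT2G39040 and AT4G33550 were 6.19-fold to 7.92-fold lower. Over the 15 falls the change from 0 to 8 h was -4.13 to -2.58 in IAA roots and -0.52 to 0.59 in control roots (log2).

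**Figure D2:**
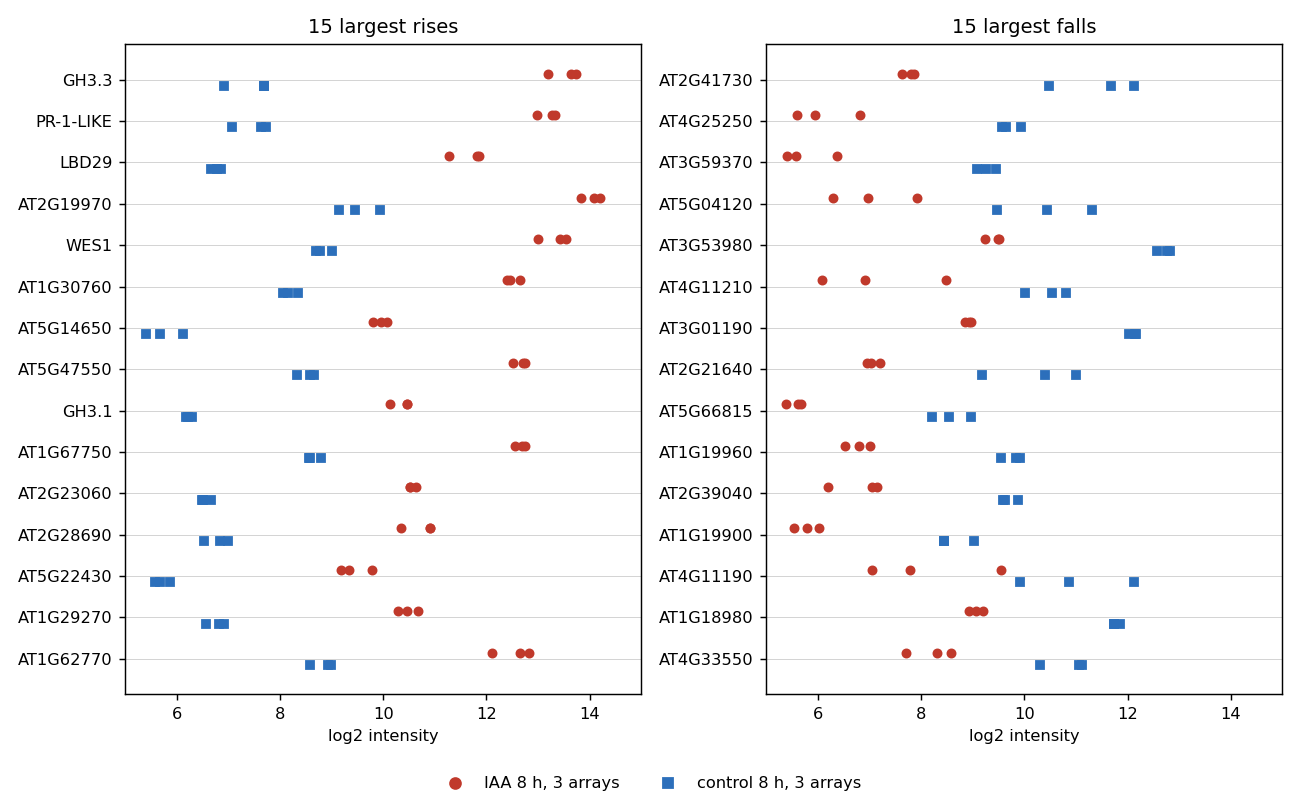
Log2 intensity on each array (x axis) for the 15 named genes with the largest rises (left) and the largest falls (right), IAA 8 h as red circles above control 8 h as blue squares, 3 arrays each. The genes were taken only from those whose arrays do not overlap between the media, so the separation is part of the choice, and the gap narrows to 0.36 in AT4G11190.

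Among probe sets that the table does not pair with exactly 1 gene, 2 each of the largest rises and falls were taken. Probe set 260492_at stood at 11.01, 11.64 and 11.35 on IAA, against 5.90, 6.10 and 5.92 on control medium, 40.9-fold higher (log2 change 5.35 ± 0.206, adjusted p = 1.51e-20), its control mean below the lower quartiles, and 258769_at was 37.6-fold higher (log2 change 5.23 ± 0.365, adjusted p = 1.96e-13). The largest falls exceeded those of the named genes. Probe set 248844_s_at stood at 8.19, 6.80 and 9.84 on IAA, against 12.99, 12.82 and 13.14 on control medium, 26.2-fold lower (log2 change -4.71 ± 0.454, adjusted p = 5.04e-10). Probe set 254820_s_at was 18-fold lower (log2 change -4.17 ± 0.491, adjusted p = 4.9e-08), and in both of these IAA replicate 3 was the highest and replicate 2 the lowest of the IAA arrays, as in the dirigent genes.

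Gene groups were read against the named genes as a whole. Of 13356 named genes, 1818 (13.6%) were called, 1025 higher (7.67%) and 793 lower (5.94%), with a median log2 change of -0.02. In these whole-root samples fewer cells of a type and less RNA per cell cannot be told apart. Of 9 measured markers of shoot and photosynthetic cells 0 were called by limma, and their summed linear intensity was 912 to 1235 on IAA and 1082 to 1093 on control medium. Root cell types had 2 measured markers at most. The root hair expansins EXPA7 and EXPA18 were not called (0.15, adjusted p = 0.812 and 0.15, adjusted p = 0.841), nor was GSO1, whose receptor kinase seals the Casparian strip (-0.44, adjusted p = 0.0573, but 0.012 with the replicate block, 0.0307 with the block within each time and 0.0203 to 0.0474 under the 5 other settings in which it passed). The root cap list had 2 measured members, the beta-glucosidase genes PYK10 and BGLU44, while the planned markers SMB, BRN1, BRN2, FEZ and CEL5 were not measured. Whether these 2 genes mark the cap was not tested. PYK10 changed by 0.26 (adjusted p = 0.219) and BGLU44 by -1.15 (adjusted p = 0.0527), and neither was called. BGLU44 passed with the replicate block (0.00596), with the block within each time (0.0193) and under 5 other settings (0.0194 to 0.0446). The summed linear intensity of PYK10 and BGLU44, most of it from PYK10, was 20574 to 21804 on IAA and 16106 to 20965 on control medium.

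Of 7 measured Aux/IAA genes, 3 rose, 0 fell and 4 were not called, with a list median of 0.20. IAA29 (AT4G32280) stood at 8.70, 8.99 and 8.83 on IAA, against 6.11, 6.17 and 6.25 on control medium, 6.34-fold higher (log2 change 2.66 ± 0.361, adjusted p = 8.2e-07), with its control mean in the range of the lower quartiles. IAA18 (AT1G51950) stood at 9.58, 9.93 and 9.87 on IAA, against 8.03, 7.87 and 8.40 on control medium, 3.24-fold higher (log2 change 1.70 ± 0.169, adjusted p = 1.12e-09). IAA30 (AT3G62100) stood at 7.42, 7.58 and 7.76 on IAA, against 6.38, 6.14 and 6.38 on control medium, 2.44-fold higher (log2 change 1.29 ± 0.225, adjusted p = 6.09e-05). The arrays of the media were apart in all 3. IAA20, IAA31, IAA34 and IAA33 changed by -0.08 to 0.20 and were not called.

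Of 5 measured GH3 genes, 4 rose, and their list median of 4.12 was the highest of the lists with 3 or more measured members. GH3.17 (AT1G28130), whose enzyme conjugates IAA to glutamate, stood at 11.47, 11.57 and 11.41 on IAA, against 9.95, 10.07 and 10.70 on control medium, 2.37-fold higher (log2 change 1.24 ± 0.254, adjusted p = 0.000525), and its adjusted p was 0.0585 with the 0 h difference subtracted. GH3.9 was at 5.44 ± 0.11 on IAA and 5.58 ± 0.0497 on control medium (mean log2 intensity ± SD over 3 arrays), not called and below the lower quartiles in both media. UGT74D1, a glucosyltransferase that acts on IAA and its oxidised form, fell (-0.62, adjusted p = 0.0163), but the call was lost without IAA replicate 1 (0.0528), IAA replicate 2 (0.098) or control replicate 2 (0.111) and without replicate 1 (0.196) or 2 (0.242). Its relative UGT84B1 was not called (-0.15, adjusted p = 0.541).

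Of 4 measured auxin biosynthesis genes, all YUCCA flavin monooxygenases, only YUC6 (AT5G25620) was called. It stood at 7.40, 7.30 and 7.38 on IAA, against 7.86, 7.89 and 7.87 on control medium, 1.43-fold lower (log2 change -0.52 ± 0.103, adjusted p = 0.000406), with the arrays apart by 0.46, and the adjusted p was 0.0887 with the 0 h difference subtracted. YUC2, YUC4 and YUC11 changed by -0.06, 0.10 and -0.27 and were not called. Of these uncalled genes, 2 had both means below the arrays' highest lower quartile (6.29) and are not shown to exceed background. Their lack of a call does not show a lack of response. The protein kinase genes WAG2 and PID2, relatives of the auxin transport regulator PINOID, were not called either (-0.13, adjusted p = 0.848 and -0.03, adjusted p = 0.94).

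Of 7 measured regulators of lateral roots and the root meristem, 4 rose and 3 were not called, with a median of 0.39. PUCHI (AT5G18560), an AP2/ERF factor that acts in lateral root primordia, stood at 8.57, 8.76 and 8.75 on IAA, against 7.02, 6.90 and 6.93 on control medium, 3.35-fold higher (log2 change 1.75 ± 0.265, adjusted p = 6.4e-06). LBD16 (AT2G42430), which acts with LBD29 in lateral root initiation, stood at 8.85, 9.03 and 8.92 on IAA, against 7.69, 7.84 and 7.99 on control medium, 2.13-fold higher (log2 change 1.09 ± 0.241, adjusted p = 0.00126), and its adjusted p was 0.0617 without replicate 1. CR4 (AT3G59420), the receptor kinase ACR4, stood at 6.79, 6.82 and 6.93 on IAA, against 6.50, 6.37 and 6.50 on control medium, 1.31-fold higher (log2 change 0.39 ± 0.0875, adjusted p = 0.0014), and its adjusted p was 0.0809 without replicate 2. LHW, AGL21 and RALFL34 changed by 0.00 to 0.09. The homeodomain-leucine zipper factors HAT2 and PHV were not called (0.19, adjusted p = 0.69 and 0.18, adjusted p = 0.374).

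**Figure D3:**
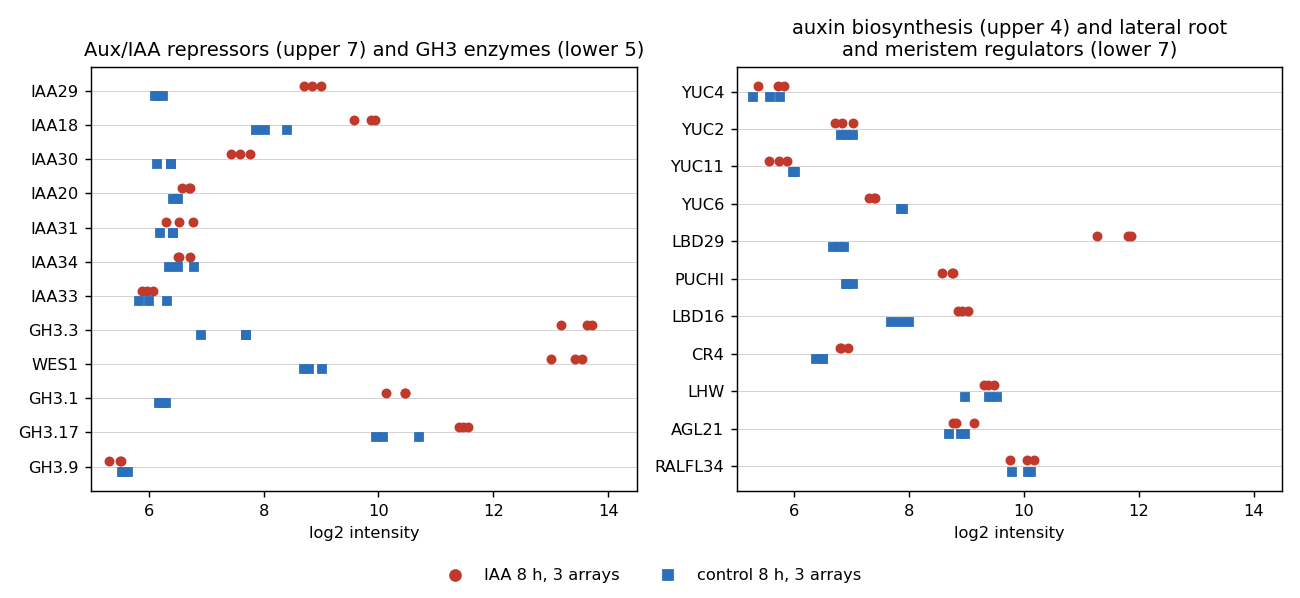
Log2 intensity on each array (x axis) for Aux/IAA repressors and GH3 enzymes (left) and for auxin biosynthesis genes and lateral root and meristem regulators (right), IAA 8 h as red circles above control 8 h as blue squares, 3 arrays each. Red lies right of blue in the called Aux/IAA, GH3 and lateral root genes, and left of blue in YUC6.

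Genes of the cell wall moved in both directions. Of 19 measured expansins, proteins that loosen the wall, 1 rose and 4 fell. EXPB2 (AT1G65680) stood at 9.29, 9.04 and 8.84 on IAA, against 6.33, 6.31 and 6.46 on control medium, 6.47-fold higher (log2 change 2.69 ± 0.251, adjusted p = 2.4e-10). EXPB1 (AT2G20750) stood at 7.19, 6.53 and 7.23 on IAA, against 9.38, 9.47 and 9.64 on control medium, 5.71-fold lower (log2 change -2.51 ± 0.319, adjusted p = 2.35e-07). These 2 beta-expansins lay apart in opposite directions on all arrays. EXPB3 (-1.16, adjusted p = 0.00793), EXLA2 (-1.01, adjusted p = 0.00127) and EXPA8 (-0.97, adjusted p = 0.000395) also fell. The EXPB3 call was lost without IAA replicate 3 (0.0965), replicate 1 (0.0506) or replicate 3 at all times (0.131), and the EXLA2 call without replicate 1 (0.0542).

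Of 10 measured xyloglucan endotransglucosylases/hydrolases, which cut and rejoin xyloglucan chains, 1 rose and 3 fell. XTH21 (AT2G18800) stood at 6.55, 6.41 and 6.31 on IAA, against 8.37, 8.55 and 8.12 on control medium, 3.79-fold lower (log2 change -1.92 ± 0.303, adjusted p = 1.22e-05). XTH16 was 3.07-fold lower (log2 change -1.62 ± 0.22, adjusted p = 8.38e-07) and XTH32 was 2.17-fold lower (log2 change -1.12 ± 0.187, adjusted p = 2.92e-05). XTH18 was 1.77-fold higher (log2 change 0.82 ± 0.287, adjusted p = 0.0466), a call lost with median centring (0.073), without any 1 of the 8 h arrays except IAA replicate 3 (0.0663 to 0.184) and without any replicate number (0.065 to 0.266).

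Of 4 pectin genes matched by a synonym, the pectin methylesterase gene ATPMEPCRB rose (1.06, adjusted p = 0.0236) and PMEPCRF, of the same enzyme family, fell (-0.74, adjusted p = 0.00881). The pectate lyase gene AT1G67750 (4.02), given with the largest rises, lies outside these 4, so they do not stand for all pectin genes. The ATPMEPCRB call was lost without IAA replicates 1 or 2 or control replicates 1 or 3 (0.0602 to 0.119) and without replicate 1 or 2 (0.157 and 0.137), and the PMEPCRF call without control replicate 2 (0.0684) and without replicate 1 or 2 (0.0894 and 0.0923). Of 14 genes of cellulose, hemicellulose and secondary wall synthesis, 2 fell and 0 rose (14.3%, near the 13.6% of all named genes). Both act in xylan synthesis. IRX15-L stood at 8.06, 7.79 and 7.83 on IAA, against 8.93, 9.03 and 8.78 on control medium, 2.03-fold lower (log2 change -1.02 ± 0.139, adjusted p = 8.79e-07). GUT2 was 1.26-fold lower (log2 change -0.33 ± 0.113, adjusted p = 0.0408), a call lost without any 1 of the 8 h arrays except IAA replicate 3 (0.0611 to 0.138), without any replicate number (0.0538 to 0.274) and in a fit of the 6 arrays of 8 h alone (0.0569). None of 5 class III peroxidases with a symbol or synonym, 6 phenylpropanoid genes and the 6 members of the flavonoid list was called by limma in the fit of all 48 arrays. The class III peroxidase gene AT3G01190 (-3.20), given with the largest falls, carries only a locus and lies outside these 5. Peroxidase genes given only by locus were not counted, so these 5 do not stand for the family. The symbol CHI in the flavonoid list belongs to the chitinase gene AT2G43570 and not to chalcone isomerase, and its UGT80B1 is a sterol glucosyltransferase. Among these 17 genes the largest change was that of AT5G64120 (0.92, adjusted p = 0.144), a peroxidase gene. Prx37 was not called (0.84, adjusted p = 0.0938), and its adjusted p was 0.0428 with the block within each time, 0.0425 with the 4 most deviating arrays left out and 0.00113 in a fit of the 6 arrays of 8 h alone. That fit also called AT5G64120 (0.0236) and CCOAMT (0.54, 0.041), a methyltransferase gene. Without replicate 3 the flavonoid list had 2 falls, CHIL (-0.89, 0.0106, against -0.56 with it) and UGT78D2 (-0.53, 0.0102, against -0.38 with it).

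Of 14 measured genes of the cell cycle and DNA replication, 5 rose, 0 fell and 9 were not called, with a list median of 0.33. All 14 changes were above 0, from 0.07 to 0.69. POLA3, a subunit of DNA polymerase alpha, stood at 8.75, 8.81 and 8.66 on IAA, against 8.12, 8.17 and 8.11 on control medium, 1.52-fold higher (log2 change 0.61 ± 0.113, adjusted p = 0.000167). The mitotic kinase gene AUR1 stood at 9.32, 9.25 and 9.21 on IAA, against 8.68, 8.67 and 8.71 on control medium, 1.49-fold higher (log2 change 0.57 ± 0.13, adjusted p = 0.00162). PRL, the replication licensing factor MCM7, was 1.49-fold higher (log2 change 0.57 ± 0.127, adjusted p = 0.00128), and HBT, a subunit of the anaphase-promoting complex, rose by 0.48 (adjusted p = 0.0214). SIM, the highest riser, encodes an inhibitor of cyclin-dependent kinases and not a driver of division; it was 1.61-fold higher (log2 change 0.69 ± 0.154, adjusted p = 0.00145). Without replicate 1 the AUR1 and SIM calls were lost (0.0737 and 0.0832), and with the 0 h difference subtracted those of PRL, AUR1 and SIM (0.0629, 0.0882 and 0.137). The calls of SIM, POLA3, AUR1 and PRL held with median centring and with quantile normalization.

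Of 7 measured tubulins, subunits of microtubules, TUB1 fell and TUA1 rose. TUB1 stood at 9.40, 8.95 and 9.32 on IAA, against 10.72, 10.72 and 10.69 on control medium, 2.8-fold lower (log2 change -1.49 ± 0.308, adjusted p = 0.000617). TUA1 was 1.31-fold higher (log2 change 0.39 ± 0.137, adjusted p = 0.0496), with the lowest IAA array level with the highest control array. The TUA1 call was lost with the block within each time (0.0507), with median centring (0.0517), with quantile normalization (0.0691), without any 1 of the 8 h arrays except control replicate 3 (0.0671 to 0.24) and without any replicate number (0.0546 to 0.315). A fit of the 6 arrays of 8 h alone ended it too (0.109).

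Among genes of other hormones BRL1, a brassinosteroid receptor of vascular cells, stood at 8.10, 8.08 and 8.07 on IAA, against 6.82, 6.90 and 6.79 on control medium, 2.37-fold higher (log2 change 1.24 ± 0.186, adjusted p = 4.93e-06), the 1 called of 4 gibberellin and brassinosteroid genes. RTE1, a negative regulator of ethylene response, rose (0.56, adjusted p = 0.0106), a call lost without IAA replicate 1 (0.05), replicate 1 (0.167) or replicate 2 (0.0512). With limma 0 of 6 cytokinin genes, 0 of 10 abscisic acid genes and 0 of 6 jasmonate genes were called. All 6 cytokinin genes, 3 of the abscisic acid genes and 3 of the jasmonate genes had both means below the arrays' highest lower quartile (6.29). These are not shown to exceed background, so their lack of calls does not show a lack of response. LEA4-5, of the abscisic acid list, changed by -0.78 (adjusted p = 0.103, 0.0318 with the block within each time, 0.0487 with the 4 most deviating arrays left out and 0.00434 in a fit of the 6 arrays of 8 h alone). That fit also called COR47 of this list (-0.50, 0.0163, against 0.264 in the fit of all arrays). The cytokinin response regulator gene ARR15 changed by -0.36 (adjusted p = 0.0808) and passed without IAA replicate 3 (0.0247) or control replicate 2 (0.0321). Both of its means lay below 6.29.

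Of 16 measured genes of small secreted peptides, 1 rose and 3 fell. CLE44 (AT4G13195) stood at 10.42, 10.75 and 10.53 on IAA, against 7.29, 7.48 and 6.98 on control medium, 9.95-fold higher (log2 change 3.31 ± 0.372, adjusted p = 1.75e-08). CLE41 stood at 8.03, 8.16 and 7.78 on IAA, against 8.50, 8.59 and 8.59 on control medium, 1.48-fold lower (log2 change -0.57 ± 0.168, adjusted p = 0.0174). CLE44 and CLE41 encode the same mature peptide, a signal from phloem that acts on the vascular cambium. The arrays of the media were apart in opposite directions in these 2 genes, but the CLE41 call was lost without IAA replicate 3 (0.109), control replicate 2 (0.054), control replicate 3 (0.0554) and each replicate number (0.0673 to 0.144). RALFL27, of the family of alkalinization peptides, was 2.5-fold lower (log2 change -1.32 ± 0.308, adjusted p = 0.00216), and its adjusted p was 0.127 without replicate 1. CLE40, a peptide of the distal root meristem, was called lower (-0.45, adjusted p = 0.0391), but both of its means, 4.90 ± 0.573 on IAA and 5.35 ± 0.0821 on control medium, lay below the lower quartiles and are not shown to exceed background. IAA replicate 2 stood at 4.28 and the other IAA arrays at 5.41 and 5.02, and the adjusted p was 0.555 without that array. The call was also lost without control replicates 1, 2 or 3 (0.0528 to 0.114), without replicate 2 or 3 (0.575 and 0.154) and with quantile normalization (0.105). A fit of the 6 arrays of 8 h alone ended it too (0.264).

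Transcription factors of the bHLH and bZIP families were split, with 4 higher and 4 lower of 29 measured. ILR3, a bHLH factor of iron homeostasis, stood at 10.86, 11.05 and 11.08 on IAA, against 10.15, 10.16 and 10.11 on control medium, 1.8-fold higher (log2 change 0.85 ± 0.0974, adjusted p = 2.63e-08). bZIP44 was 1.82-fold higher (log2 change 0.86 ± 0.193, adjusted p = 0.00142), AT4G38900, which is bZIP29, 1.74-fold higher (log2 change 0.80 ± 0.195, adjusted p = 0.00344), and BZIP61 2.03-fold lower (log2 change -1.02 ± 0.247, adjusted p = 0.00324). Without replicate 2 the calls of bZIP44 (0.111), AT4G38900 (0.151) and BZIP61 (0.0674) were lost, and that of AT4G38900 also without replicate 1 (0.127). NAC014 was 1.36-fold higher (log2 change 0.45 ± 0.0983, adjusted p = 0.00118), the 1 measured NAC factor. Of 7 WRKY factors only WRKY42 was called (14.3%, near the 13.6% of all named genes), 1.25-fold lower (log2 change -0.32 ± 0.109, adjusted p = 0.0389). Its call was lost without any 1 of the 6 arrays (0.0578 to 0.113) and without any replicate number (0.0895 to 0.212). The call was also lost with median centring (0.0523), with quantile normalization (0.158) and in a fit of the 6 arrays of 8 h alone (0.0526).

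**Figure D4:**
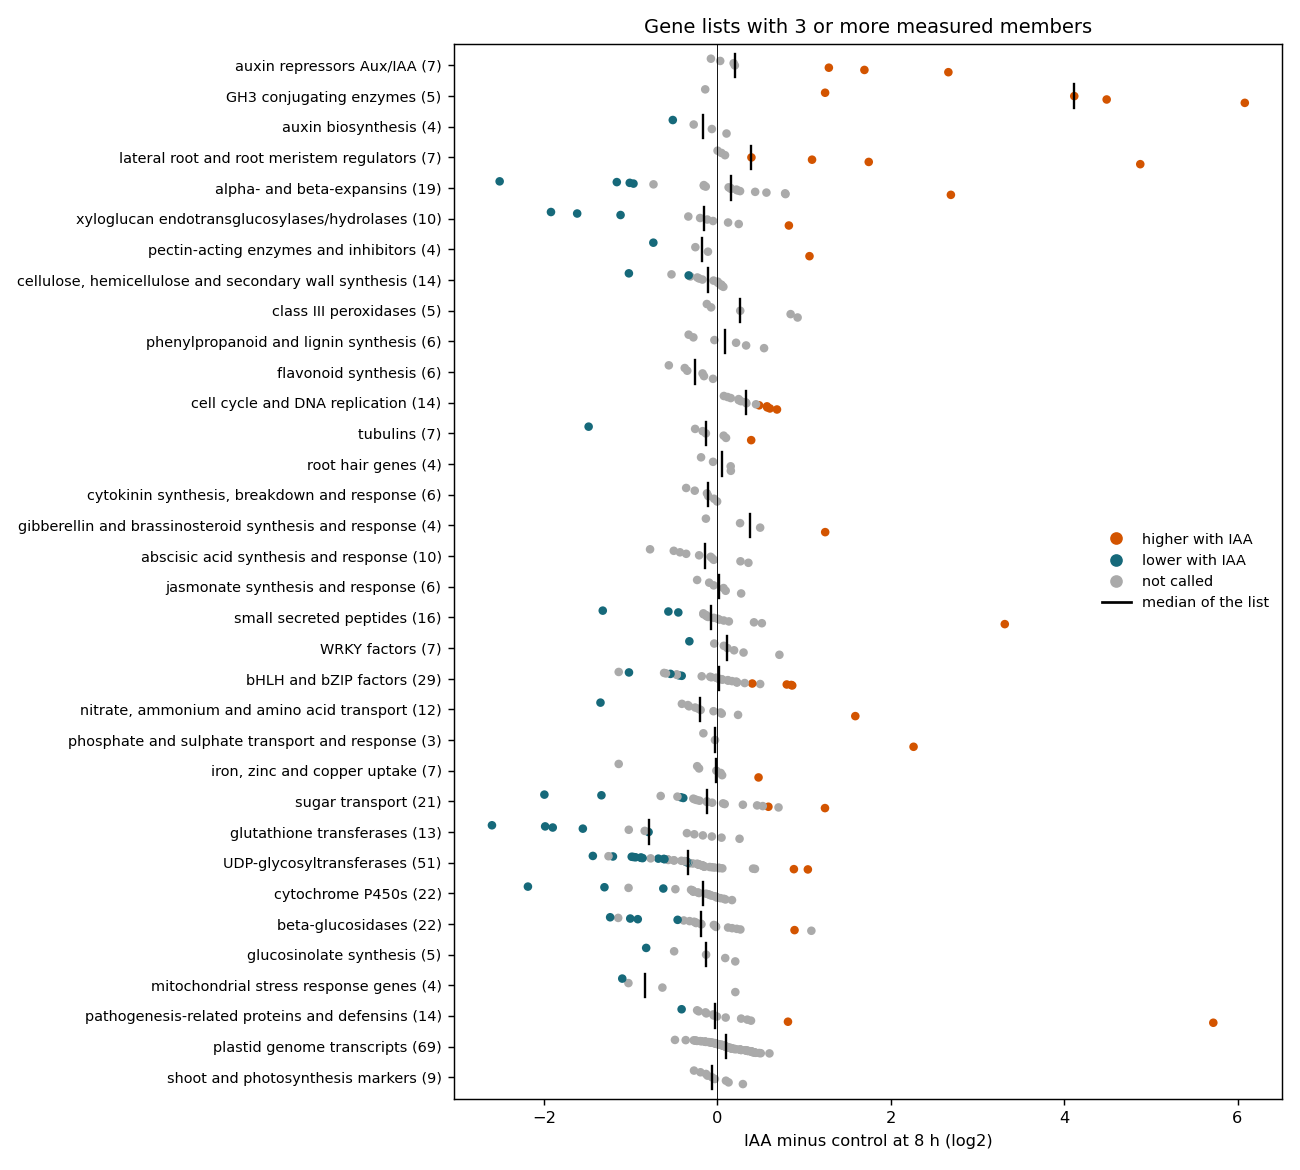
IAA minus control at 8 h (log2, x axis) of every measured member of the 34 lists with 3 or more measured members, the number measured in brackets. Orange points were called higher on IAA, blue-green points lower, grey points were not called, and the black bar is the list median. The median runs from -0.83 for the mitochondrial stress response list, whose measured members are all NDB genes, to 4.12 for the GH3 enzymes.

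The called transport genes went in both directions. AT1G59740, which is NPF4.3, stood at 8.36, 8.87 and 8.49 on IAA, against 6.87, 6.94 and 7.13 on control medium, 3.01-fold higher (log2 change 1.59 ± 0.244, adjusted p = 7.18e-06). AT3G21670, which is the nitrate transporter NPF6.4, stood at 6.70, 6.67 and 6.92 on IAA, against 8.11, 8.11 and 8.13 on control medium, 2.55-fold lower (log2 change -1.35 ± 0.288, adjusted p = 0.000851). They were the 2 called of 12 genes of nitrate, ammonium and amino acid transport (16.7%, near the 13.6% of all named genes), and their arrays were apart. PAP20, of the purple acid phosphatases, stood at 7.95, 7.84 and 7.79 on IAA, against 5.60, 5.61 and 5.59 on control medium, 4.8-fold higher (log2 change 2.26 ± 0.168, adjusted p = 8.33e-13), its control mean below the lower quartiles. The 1 call among 7 measured genes in the list of iron, zinc and copper uptake (14.3%) came from a shared symbol. Its FRO1 is AT5G67590, which the RefSeq table calls FROSTBITE1, a subunit of mitochondrial complex I and not a ferric reductase. It rose by 0.47 (adjusted p = 0.0112), a call lost without IAA replicate 2 (0.062), control replicate 1 (0.0632), replicate 2 (0.0935) or replicate 3 (0.0903).

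Of 21 sugar transporters, 2 rose and 4 fell. The sucrose exporters SWEET14 and SWEET13 fell. SWEET14 stood at 6.78, 7.02 and 6.30 on IAA, against 8.24, 9.06 and 8.78 on control medium, 3.99-fold lower (log2 change -1.996 ± 0.331, adjusted p = 2.67e-05), and SWEET13 at 6.76, 6.87 and 6.72 on IAA, against 7.89, 8.42 and 8.06 on control medium, 2.53-fold lower (log2 change -1.34 ± 0.251, adjusted p = 0.000172). SAG29, which is SWEET15 of the same family, stood at 8.34, 8.05 and 7.58 on IAA, against 6.74, 6.75 and 6.76 on control medium, 2.36-fold higher (log2 change 1.24 ± 0.155, adjusted p = 1.57e-07). The media did not overlap in any of these 3. SFP1, a sugar porter, was 1.5-fold higher (log2 change 0.59 ± 0.148, adjusted p = 0.00472), and 0.0586 was its adjusted p without replicate 3. SWEET6 and the tonoplast sugar transporter TMT3 fell by 0.39 and 0.42 (log2).

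In the lists of detoxification and secondary metabolism most calls were falls. Of 13 measured glutathione transferases, 5 fell and 0 rose, all 5 of the tau class, with a list median of -0.79. GSTU25 (AT1G17180) stood at 9.83, 10.04 and 9.50 on IAA, against 12.62, 12.71 and 11.85 on control medium, 6.07-fold lower (log2 change -2.60 ± 0.359, adjusted p = 1.13e-06). GSTU27 stood at 9.26, 9.28 and 9.27 on IAA, against 10.75, 10.79 and 10.92 on control medium, 2.93-fold lower (log2 change -1.55 ± 0.166, adjusted p = 6.07e-09). GSTU28 was 3.73-fold lower (log2 change -1.90 ± 0.321, adjusted p = 3.54e-05), and GSTU21 fell by 0.79 (log2, adjusted p = 0.0293). GSTU26, the neighbour of GSTU25, stood at 8.67, 8.52 and 9.74 on IAA, against 10.71, 10.52 and 11.66 on control medium, 3.97-fold lower (log2 change -1.99 ± 0.65, adjusted p = 0.0329), replicate 3 being the highest array in each medium. The GSTU26 call was lost without IAA replicates 1 or 2 or control replicates 1 or 3 (0.0568 to 0.155) and without replicate 1 or 2 (0.204 and 0.196). Tau class genes are similar in sequence, and whether their probes share signal was not tested.

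Of 51 measured UDP-glycosyltransferases, enzymes that attach sugars to hormones and secondary compounds, 2 rose and 14 fell, with a median of -0.34. Both means of 11 of the 51 lay below the arrays' highest lower quartile (6.29) and are not shown to exceed background. GT72B1, which is UGT72B1, fell by 0.97 (log2, adjusted p = 0.00014) and UGT71B1 by 0.88 (adjusted p = 0.000143). The largest fall was that of UGT73B4, at 8.52, 8.63 and 8.09 on IAA, against 10.12, 10.41 and 9.02 on control medium, 2.71-fold lower (log2 change -1.44 ± 0.424, adjusted p = 0.017), followed by UGT84A1 (-1.21, adjusted p = 0.029) and UGT73B5 (-0.99, adjusted p = 0.0155). In all 3 control replicate 3 was the lowest control array. Their calls were lost without single 8 h arrays, UGT73B4 and UGT73B5 without IAA replicate 3 or control replicates 1 or 2 (0.0594 to 0.109) and UGT84A1 without any but control replicate 3 (0.0645 to 0.13), and all 3 without replicate 1 (0.21, 0.249 and 0.311) or replicate 2 (0.109, 0.126 and 0.267). UGT76D1 was 2.06-fold higher (log2 change 1.04 ± 0.278, adjusted p = 0.00792), with 0.0553 without control replicate 2 and 0.121 without replicate 1, and UGT84A4 rose by 0.88 (adjusted p = 0.00182).

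Of 22 cytochrome P450s, 3 fell and 0 rose, so 13.6% were called, the same share as among all named genes (13.6%). Both means of 11 of the 22 lay below the arrays' highest lower quartile (6.29) and are not shown to exceed background. CYP71B34 stood at 5.81, 5.29 and 6.64 on IAA, against 7.90, 8.21 and 8.19 on control medium, 4.55-fold lower (log2 change -2.19 ± 0.296, adjusted p = 7.93e-07), its IAA mean below the lower quartiles. CYP71B26 was 2.47-fold lower (log2 change -1.30 ± 0.289, adjusted p = 0.00129) and CYP84A4 1.54-fold lower (log2 change -0.62 ± 0.157, adjusted p = 0.00476). Without replicate 2 both of the last calls were lost (0.0578 and 0.137), and that of CYP71B26 also without replicate 1 (0.0598). Of 22 beta-glucosidases, which release compounds from their glucosides, 1 rose and 4 fell, and 8 of the 22 had both means below 6.29. BGLU16 stood at 8.87, 8.76 and 9.05 on IAA, against 9.73, 9.67 and 10.30 on control medium, 2.01-fold lower (log2 change -1.01 ± 0.186, adjusted p = 0.00014). BGLU46 rose (0.89, adjusted p = 0.0215) and BGLU45, of the same group of monolignol glucosidases, fell (-0.92, adjusted p = 0.0125), as did BGLU28 (-1.24, adjusted p = 0.0422) and BGLU40 (-0.46, adjusted p = 0.00807). Single 8 h arrays decided the calls of BGLU46 (IAA replicates 2 and 3 and control replicate 3, 0.0743 to 0.0986), BGLU45 (IAA replicate 1 and control replicate 2, 0.0539 and 0.0873) and BGLU28 (all but control replicate 3, 0.0883 to 0.195). All 3 were also lost without replicate 1 or 2 (0.0778 to 0.279), BGLU46 also without replicate 3 (0.073) and BGLU28 with quantile normalization (0.0613).

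NDB2, an alternative NADH dehydrogenase of mitochondria, stood at 9.70, 9.58 and 9.49 on IAA, against 10.89, 10.92 and 10.25 on control medium, 2.14-fold lower (log2 change -1.10 ± 0.19, adjusted p = 5.03e-05). It was the 1 called of 4 measured members of the mitochondrial stress response list. All 4 are NDB genes, so the count does not cover other genes of that response. AOP1, of glucosinolate side chain modification, was 1.77-fold lower (log2 change -0.82 ± 0.194, adjusted p = 0.00248), and 0.0513 was its adjusted p without replicate 2. Of 14 pathogenesis-related proteins and defensins, PR-1-LIKE and PDF2.5 rose and LCR68 fell (21.4% called, against 13.6% of all named genes). Both means of 7 of the 14 lay below the arrays' highest lower quartile (6.29) and are not shown to exceed background. The defensin-type gene PDF2.5 was 1.76-fold higher (log2 change 0.81 ± 0.216, adjusted p = 0.00763), with 0.114 without replicate 2. LCR68, of a defensin-like family, was 1.33-fold lower (log2 change -0.41 ± 0.14, adjusted p = 0.0405), a call lost without IAA replicates 1 or 3 or control replicates 1 or 2 (0.0857 to 0.255), without any replicate number (0.0825 to 0.266) and with median centring (0.0834). A fit of the 6 arrays of 8 h alone ended it too (0.0877). Of 69 transcripts of the plastid genome 0 were called by limma, with changes between -0.49 and 0.60. The housekeeping genes GAPC2 and PEX4 changed by -0.09 and 0.03 and were not called. With quantile normalization the GAPC2 change was -0.41 and passed (adjusted p = 0.0388).

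Several called genes lie side by side. Among 5814 pairs of adjacent measured genes in the RefSeq table, 178 (3.06%) had both members called, where 13.6% of named genes were called, which squared is 1.85%. Of the 178 pairs, 78 were both higher, 57 both lower and 43 in opposite directions. With a fold of at least 2 in both members there were 26 pairs, 12 both higher, 12 both lower and 2 opposite. CLE44 and its neighbour AT4G13190 rose by 3.31 and 1.32 (log2), and IAA30 and AT3G62110 rose by 1.29 each. AT4G37295 and AT4G37290 rose by 3.55 and 1.93. AT4G25250 and AT4G25260 fell by 3.59 and 1.40, and AT2G39040 and EULS3 fell by 2.90 and 1.60. In the 2 opposite pairs AT2G48080 changed by -1.53 and AT2G48090 by 1.45, and AT2G47540 by -1.76 and AT2G47550 by 1.76. These counts are a description, and shared probe sequence was not tested.

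Subtracting the 0 h difference, which adds the error of 6 more arrays, ended 32 of the 107 calls among the named features (adjusted p = 0.0539 to 0.345). Besides GH3.17, YUC6, PRL, AUR1 and SIM, given with those genes, these were the calls of RALFL27 (0.0776), bZIP44 (0.0539), BZIP61 (0.0815), SFP1 (0.16), CYP71B26 (0.0617), CYP84A4 (0.154), PDF2.5 (0.219), UGT76D1 (0.0981) and RTE1 (0.152). The others were GUT2, CLE41, CLE40, FRO1, UGT74D1, UGT84A1, UGT73B4, UGT73B5, BGLU28, BGLU45, BGLU46, LCR68, GSTU26, ATPMEPCRB, WRKY42, AT2G42060, XTH18 and TUA1, each of which also lost its call when at least 1 of the single 8 h arrays was left out.

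The calls at 8 h were set beside those of the neighbouring times, which use other arrays. At 4 h 3827 probe sets (16.8%) were called and at 12 h 2483 (10.9%). The 2055 probe sets called at 4 and 8 h in the same direction made up 60.7% of the 8 h calls and 53.7% of the 4 h calls, and 2 were called in opposite directions. The 1745 called at 8 and 12 h in the same direction made up 51.6% of the 8 h calls and 70.3% of the 12 h calls, and 1 was called in opposite directions. In all, 1175 (34.7% of the 8 h calls) were called at 4, 8 and 12 h in 1 direction and 758 (22.4%) at 8 h and neither neighbour. All 30 genes of the largest rises and falls were called at 4, 8 and 12 h in the same direction. AUR1, EXPB3, CLE40, GUT2 and WRKY42 were among those called at 8 h alone, but the differences of their effect from 4 h and from 12 h were not called (for example, adjusted p = 0.829 for AUR1 and 0.746 for EXPB3 against 4 h), so they are not shown to differ between the times.

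The difference of the effect itself was called for 71 probe sets between 8 and 4 h (0.312%), 47 with a more positive and 24 with a more negative effect at 8 h, and for 15 between 8 and 12 h (0.0659%), 2 and 13. The 71 became 43 to 51 without single 8 h arrays (43 without control replicate 1, 44 without IAA replicate 2, 47 without IAA replicate 3 or control replicate 2) and 6, 12 and 21 without replicate 1, 2 and 3 at all times. The 15 became 7 to 13 without single 8 h arrays (9 without IAA replicate 2, 7 without IAA replicate 3, 8 without control replicate 1, 7 without control replicate 2) and 0, 1 and 7 without replicate 1, 2 and 3. Of the 71, 39 carry 1 gene. The largest difference from 4 h was that of PR-1-LIKE, whose effect was 5.72 at 8 h and 2.31 at 4 h (difference 3.41 ± 0.555, adjusted p = 0.000725). EXPB2 changed by 2.69 at 8 h and 0.12 at 4 h (difference 2.57 ± 0.355, adjusted p = 0.000105). AT3G22060 changed by 2.59 and 0.03 (difference 2.55 ± 0.402, adjusted p = 0.000492). These 3 genes, AT5G55050 (3.03 and 1.05, difference 1.98 ± 0.452, adjusted p = 0.0406) and PAP20 (2.26 and 0.40, difference 1.86 ± 0.238, adjusted p = 3e-05) had a larger rise at 8 h than at 4 h. So did SAG29 (1.24 and 0.03, difference 1.21 ± 0.219, adjusted p = 0.00336). Of the 15 largest rises, 5 differed from 4 h, namely PR-1-LIKE, AT1G30760, AT5G47550, AT1G67750 and AT5G22430. GH3.3, WES1, GH3.1 and LBD29 did not pass (differences of -0.01 to 0.49).

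Of the 24 probe sets with a more negative effect at 8 h than at 4 h, 9 were called lower at 8 h, 3 higher and 12 not called. Most of the 24 were thus not larger falls. ZIP9, for example, changed by 1.04 at 4 h and -0.01 at 8 h (difference -1.05 ± 0.23, adjusted p = 0.0297). Larger falls at 8 h than at 4 h were found in other named genes. AT3G01190 changed by -3.20 at 8 h and -0.91 at 4 h (difference -2.28 ± 0.363, adjusted p = 0.000494), the 1 called of the 15 largest falls. AT2G39430 changed by -2.22 and -0.59 (difference -1.63 ± 0.284, adjusted p = 0.00205), and AT2G48080 by -1.53 and 0.21 (difference -1.74 ± 0.248, adjusted p = 0.000142). AT2G42060 was called in opposite directions. It stood at 7.30, 7.47 and 7.21 on IAA, against 8.40, 8.13 and 8.09 on control medium at 8 h (change -0.88, adjusted p = 0.0364), while its change was 1.36, adjusted p = 0.000849 at 4 h and -1.17, adjusted p = 0.00547 at 12 h (difference 8 minus 4 h -2.23 ± 0.412, adjusted p = 0.00443). Its 8 h call was lost without any 1 of the 6 arrays (0.0614 to 0.128), without replicate 1 or 2 (0.235 and 0.168) and with the block within each time (0.0524). Without replicate 1, 2 or 3, at least 1 of which ended each call, the differences from 4 h of PR-1-LIKE, EXPB2, AT3G22060, AT5G55050, AT3G01190, AT2G39430, AT2G48080 and AT2G42060 had adjusted p-values of 0.0572 to 0.544 where lost, and that of AT5G55050 was lost also without any 1 of the 6 arrays of 8 h (0.0522 to 0.128) and with quantile normalization (0.0585).

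From 8 to 12 h the effect of EXPB2 was 2.69 at 8 h and 4.64 at 12 h (difference 8 minus 12 h -1.95 ± 0.355, adjusted p = 0.0143), and that of AT5G52390 was 2.70 and 4.84 (difference -2.14 ± 0.417, adjusted p = 0.0203). AT1G10640 was not called at 8 h (0.39, passing with quantile normalization at 0.0456 and without replicate 3 at 0.0473) and rose at 12 h (1.70, difference -1.31 ± 0.26, adjusted p = 0.0262). PAP20 changed by 2.26 at 8 h and 3.50 at 12 h (difference -1.24 ± 0.238, adjusted p = 0.0181). XTH32 was lower at 8 h (-1.12) and not called at 12 h (0.14, difference -1.26 ± 0.264, adjusted p = 0.044). AT2G03740 was higher at 8 h (2.13) and not called at 12 h (0.27, difference 1.86 ± 0.353, adjusted p = 0.0181). With the block within each time the differences of EXPB2 (0.0772), XTH32 (0.0772), AT5G52390 (0.0874) and AT1G10640 (0.0516) were no longer called, and with the replicate block that of XTH32 (0.059). Single 8 h arrays also decided those of EXPB2 (IAA replicate 3, 0.0681), AT5G52390 (IAA replicate 3 and control replicates 1 and 2, 0.0697 to 0.147), AT2G03740 (IAA replicate 2 and control replicates 1 and 3, 0.0535 to 0.0967), XTH32 (all but control replicate 3, 0.0522 to 0.225) and AT1G10640 (all but control replicate 1, 0.052 to 0.145). All 5 were lost without replicate 1 (0.931 to 1). Those of XTH32, AT1G10640 and AT2G03740 were also lost without replicate 2 (0.208 to 1) and without replicate 3 (0.0794 to 0.302), that of AT5G52390 without replicate 2 (0.606) and that of EXPB2 without replicate 3 (0.0794), and with median centring those of XTH32 (0.0503), AT1G10640 (0.0546) and AT2G03740 (0.0546). By limma, 0 of the 30 genes of the largest rises and falls had a called difference between 8 and 12 h.

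**Figure D5:**
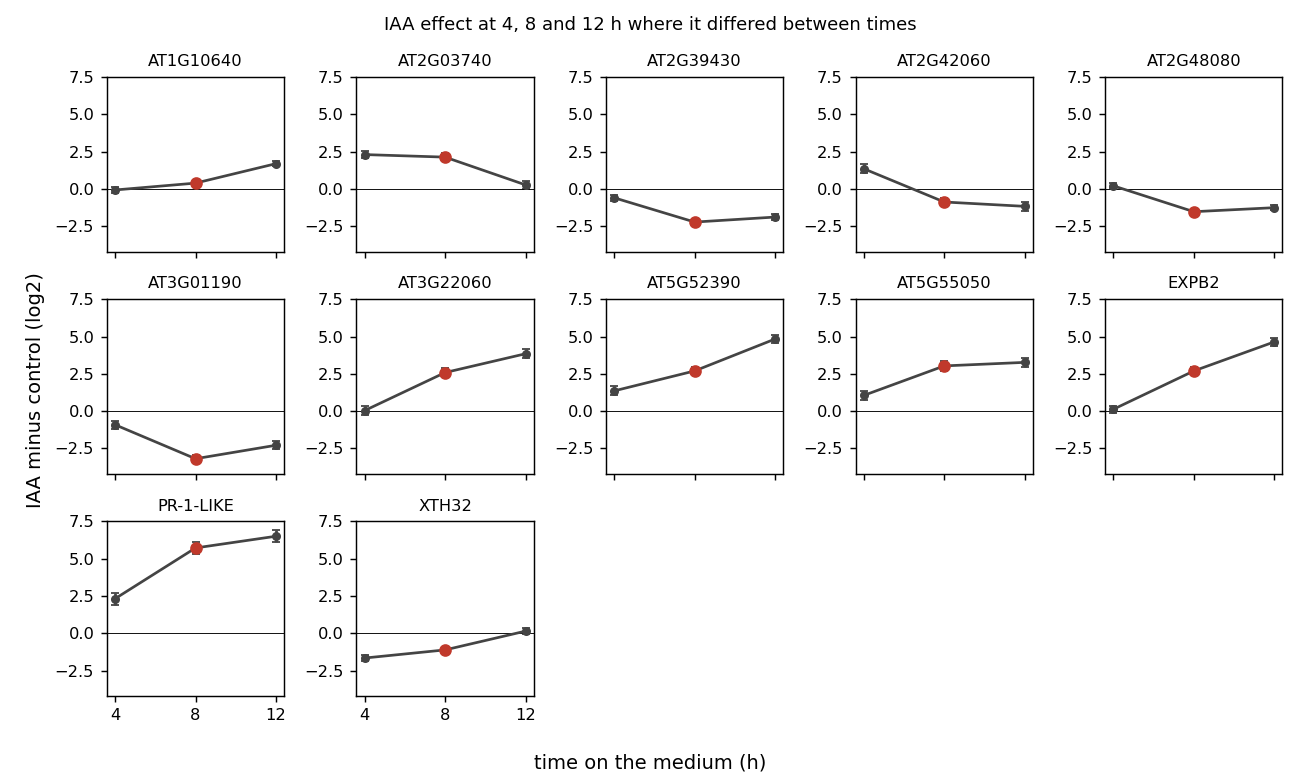
IAA minus control (log2, y axis) at 4, 8 and 12 h (x axis) in the 12 named genes with the largest differences of the effect between 8 h and a neighbouring time, mean change with its standard error from the fit, 3 arrays per medium and time, the 8 h value in red. EXPB2 climbs from 0.12 to 4.64, and AT2G42060 lies above 0 at 4 h and below it at 8 and 12 h.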

How the data were processed

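The authors deposited log2 intensities, 1 per probe set and array; the unit was read from the values. Per the labels' protocols, biotin-labelled root RNA was read on single-channel Affymetrix arrays. The method of summary and normalization and the genome build are not given in the sources used here, so no coordinates are printed. All 48 arrays, with a mean for each of 16 groups, were fitted with limma 3.58.1 (lmFit, eBayes; R 4.3.3; 32 residual degrees of freedom) on the deposited values, with no filter. The fit was also run on simulated data with independent errors, which cannot show how it behaves where arrays deviate together. Precision is limited by the 3 arrays of each group, and intensities carry no depth. Differences between times were interaction contrasts. Same-numbered IAA and control arrays of 8 h deviated together (correlations 0.194 to 0.287 in all 3 pairs, and over 0.1 in 20 of 24 pairs over all times), so blocked values are printed where they change a call.

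Genes came from the probe gene table and symbols and neighbours from the RefSeq table (TAIR10.1), which matched 13286 of 13356 genes; of several probe sets the one with the highest mean stood for the gene. The 60 gene lists were patterns of symbols and synonyms, which let in some genes of another function that share a symbol (FRO1 and CHI, kept in the counts); 442 of 3166 matched genes were measured, 92 of them called (38 higher, 54 lower), and 10 lists had no measured member. The members and lists were chosen with earlier results of these data known. The text names GH3.3 and LBD29; the 15 largest rises and falls with separate arrays; the 2 largest in each direction without 1 gene; the 4 largest calls of each list, or up to 2 genes where none was called; and the 4 largest differences between times in each direction. Other members and neighbours were added after their values were seen, and neither their calls nor the differences between times of genes named for another reason were followed through the alternatives. Alternatives were median centring, quantile normalization, a filter on low values, an intensity trend with robust estimation, only the 6 arrays of 8 h, 2 forms of replicate block, subtraction of the 0 h difference, a fold of at least 2, and each array and replicate number left out. The form of block within each time and a fit that leaves out the 4 arrays with the largest deviation from their groups (none of them of 8 h) were added after seeing the data.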

Additional observations from a re-analysis of the deposited data

Results flagged for a closer look

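Groups of 3 arrays are too small for the gap test that marks a single outlying sample, so no sample is listed here on that ground. The differences of the IAA effect between times were tested as interactions. Between 8 and 4 h, 71 probe sets passed. Among named genes, the effect at 8 h exceeded that at 4 h by 3.41 in PR-1-LIKE, 2.57 in EXPB2, 2.55 in AT3G22060 and 1.98 in AT5G55050 (log2). The difference was -2.28 in AT3G01190, -2.23 in AT2G42060, -1.74 in AT2G48080 and -1.63 in AT2G39430. Between 8 and 12 h, 15 probe sets passed. The difference, 8 minus 12 h, was -1.95 in EXPB2, -2.14 in AT5G52390, -1.31 in AT1G10640, -1.26 in XTH32 and 1.86 in AT2G03740. Each of these named differences from 12 h was lost without replicate 1. Each named difference from 4 h was lost without at least 1 replicate number, and that of AT5G55050 also without any 1 of the 6 arrays of 8 h.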

How the results depend on the processing

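The 3385 calls at 8 h numbered 1444 to 2848 when 1 replicate number or 1 of the 8 h arrays was left out, 893 with a fold of at least 2 and 1414 with the 0 h difference subtracted. They numbered 3105 with median centring, 3086 with quantile normalization, 3379 with the filter, 3363 with the trend and robust estimation, 3409 in a fit of the 6 arrays of 8 h, 4508 with the replicate block, 3851 with the block within each time and 4104 without the 4 arrays that deviated most from their groups. The 71 differences from 4 h numbered 6 to 51 in the leave-one-out fits, 127 with the replicate block, 187 without the 4 such arrays and 46 with a fold of at least 2. The 15 differences from 12 h numbered 0 to 13 in the leave-one-out fits, 9 with median centring and 27 without the 4 such arrays. The 92 called list members numbered 50 to 91 in the leave-one-out fits, 43 with a fold of at least 2 and 45 with the 0 h difference subtracted. The count at 0 h was 0 under each alternative run for it. The causes of these shifts were not tested. Of 107 called named features, 67 kept their call without each 8 h array and each replicate number. Subtracting the 0 h difference ended 32 of the 107, a fit of the 6 arrays of 8 h ended 5, and median centring and quantile normalization ended 4 each. The blocks ended no named 8 h call besides those of TUA1 and AT2G42060, and no result reversed its sign where called. Folds of weakly bright probe sets are limited by background: 174 higher and 341 lower calls had a lower mean under the highest of the arrays' lower quartiles (6.29).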
